A study of Homo sapiens with 6 samples.

Results

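The drug uptake solute carriers are the membrane proteins through which organic anions, organic cations, nucleosides, short peptides and the vitamins folate and thiamine enter cells. They were taken here as the protein-coding rows of the count table whose symbols begin with SLCO, SLC22A, SLC28A, SLC47A, SLC15A or SLC19A followed by a digit, which gave 48 genes of the 58735 in the table, 19951 of them protein-coding. The families contributed 12 genes (SLCO), 23 (SLC22A), 3 (SLC28A), 2 (SLC47A), 5 (SLC15A) and 3 (SLC19A). The symbol rule also takes in genes that are no importers. SLC47A1 and SLC47A2 encode proton antiporters that pass organic cations out of cells, and SLC22A18AS is the antisense partner of SLC22A18. RNAseq was made from C4-2B, a cell line of castration resistant prostate cancer, and from RC4-2B, a subclone that came out of it after 4 months of cycles with the taxane cabazitaxel (CBZ), begun at 0.1 nM and ended at 20 nM. Each line was represented by 3 biological replicates grown for 72 h with no drug named for that time. The labels give RPMI-1640 with 10% FBS, while the study's methods name 10% CSS besides 10% FBS, so the serum used is not settled. RC4-2B is a single subclone, so what belongs to the selection and what belongs to that clone cannot be told apart. The study made this comparison to find mechanisms of taxanes resistance.

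A drug reaches its intracellular target at a level set by both entry and efflux. Organic anion transporting polypeptides (the SLCO genes) carry bile acids, steroid conjugates, prostaglandins, thyroid hormones and many drugs without using ATP. Taxanes are known substrates of the liver forms OATP1B1 and OATP1B3, encoded by SLCO1B1 and SLCO1B3. The organic cation transporters of the SLC22A family carry monoamines and drugs such as metformin, the concentrative nucleoside transporters (SLC28A) bring in nucleosides and their analogues, and SLC19A1 is the main carrier of folates and of methotrexate.

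The libraries held between 15707134 and 18052517 counts on genes, so that 3 counts, taken as the floor of detection, stood for 0.170 to 0.188 CPM (counts relative to the library total as scaled by edgeR's TMM method), a limit that covers counting error alone. ABCB1, a drug efflux pump that carries taxanes out of cells, had at most 1 count in a C4-2B library and between 672 and 909 CPM in the RC4-2B libraries. All 12 prostate luminal markers checked were expressed, with a summed level of 4140 to 4251 CPM in C4-2B and 3006 to 3542 CPM in RC4-2B, and KLK3 and TMPRSS2 passed the test as lower in RC4-2B. The log2 fold changes of the 12, RC4-2B against C4-2B, ranged from -4.33 to 0.51, with a median of -0.049. Leukocyte markers summed to at most 0.510 CPM in any library. Basal epithelial markers (26.5 to 41.3 CPM over all libraries), fibroblast markers (24.5 to 41.3 CPM), endothelial markers (3.76 to 8.14 CPM) and hepatocyte markers (14.6 to 26.1 CPM) were low, with KRT5, TP63, COL1A2, DCN, PECAM1 and FGB at 0 counts in every library. RC4-2B replicate 2 stood apart from the other libraries. Its log2 difference from RC4-2B replicates 1 and 3 had a standard deviation of 0.59 and 0.51 across well-expressed genes, against 0.12 to 0.21 for the other pairs of the same line, and its difference from replicate 1 went with transcript GC content (Spearman correlation -0.76 across genes, which are not independent replicates). Carriers are given with and without it where it moves them.

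Of the 48 carriers, 19 had enough counts to be tested and 29 did not. None of the 19 had an adjusted p-value under 0.05 in edgeR's quasi-likelihood test, 0 higher and 0 lower in RC4-2B, where 1.98% of all 15054 genes tested passed (1.08% higher, 0.903% lower). At an unadjusted p-value under 0.05 there were 5 of 19, against 21.4% of all genes. DESeq2 called 1 carrier higher (SLCO3A1) and 1 lower (SLC22A3), with 5.93% of its tested genes called, 3.28% higher and 2.64% lower. With a GC correction of the edgeR fit the same 2 carriers were called, beside 7.62% of all genes (4.36% higher, 3.25% lower). Without RC4-2B replicate 2, SLCO3A1 was called higher and SLC22A2, SLC22A3 and SLCO4A1 lower, beside 12.5% of all genes (6.5% higher, 6.02% lower). SLC22A2 entered that fit through its C4-2B libraries, where it is high, so its call is not counted as support. Without a filter on low counts, SLCO3A1 was called higher and SLC22A3 and SLCO4A1 lower, beside 4.29% of all genes (2.07% higher, 2.22% lower). The median log2 fold change of the 19 was -0.079, beside 0.0063 over all genes, and 9 were above and 10 below 0. Over the same 19 carriers the median was -0.088 with DESeq2 and 0.068 without RC4-2B replicate 2. For 7 of the 19 the 95% interval of the log2 fold change lay within -1 and 1, against 69.8% of all genes, so that a difference of that size was not excluded for the other 12. In 4 carriers all RC4-2B libraries were above all C4-2B libraries and in 2 all were below, where 17% and 17.1% of all tested genes behaved so.

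Per gene length, a single carrier dominated. In the deposited FPKM values (counts divided by gene length and by library size), SLC22A3 stood at 45.3 ± 6.71 (SD, n = 3) in C4-2B and 27.8 ± 5.93 in RC4-2B and made up 49.1% and 41.6% of the summed FPKM of all 48 carriers. SLCO4A1 (9.77 ± 0.463 FPKM in C4-2B), SLC19A2 (9.15 ± 0.682), SLC19A1 (7.56 ± 0.433) and SLC22A31 (6.48 ± 0.702) followed. In RC4-2B the order was SLC19A2 (7.99 ± 0.663 FPKM), SLCO4A1 (6.56 ± 1.87), SLC19A1 (5.74 ± 2.17) and SLC22A31 (4.07 ± 2.86), and within each line the libraries of neighbours in this order after SLC22A3 overlapped, except SLC19A2 and SLC19A1 in C4-2B (lowest 8.50 and highest 7.87 FPKM). In C4-2B 10 carriers, and in RC4-2B 11, had a mean FPKM of at least 1. The plot of levels by gene shows that the families are interleaved, with members of SLCO and SLC22A at both ends.

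**Figure D1:**
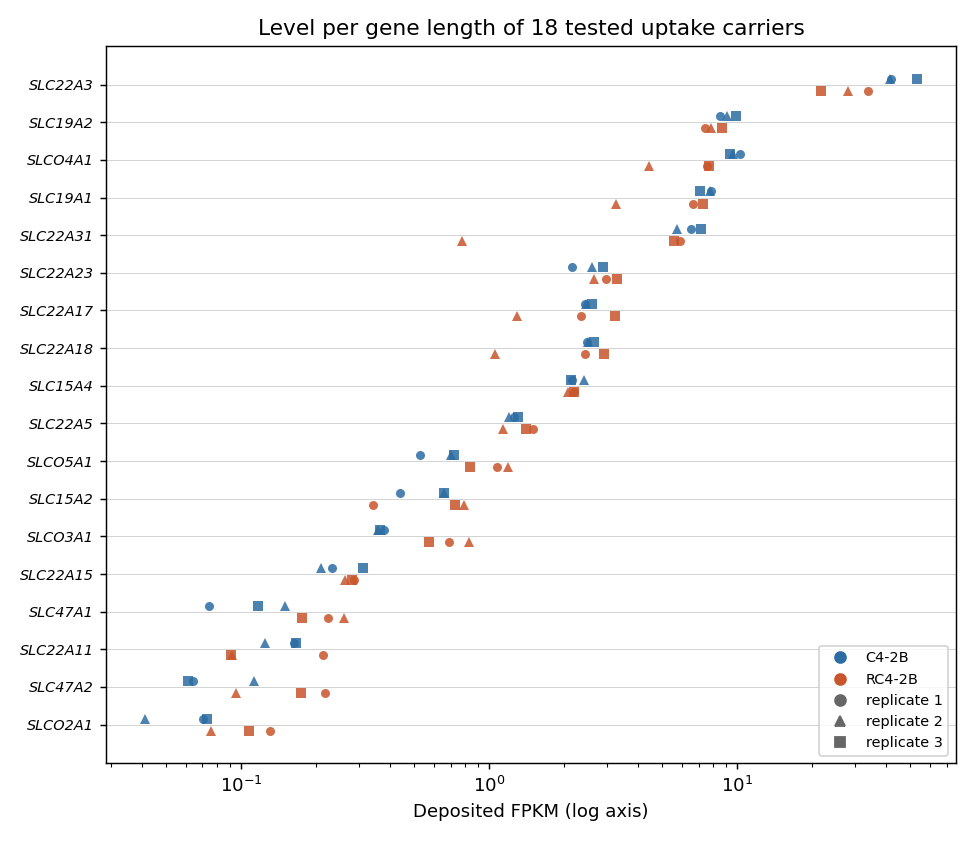
Deposited FPKM (horizontal, log axis) of 18 of the tested carriers in the 3 C4-2B libraries (blue) and the 3 RC4-2B libraries (orange), with the replicate given by the symbol. SLC22A3 lies above every other carrier in all 6 libraries, and the triangle of RC4-2B replicate 2 lies to the left of the other libraries for SLC22A31, SLC22A18, SLC22A17, SLC19A1 and SLCO4A1.

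The liver carriers named above for taxanes were not detected, and whether taxanes enter these cells by other routes was not tested. SLCO1B1 and SLCO1B3 had 0 counts in all 6 libraries, which allows up to 0.0753 FPKM for SLCO1B1 and 0.0474 FPKM for SLCO1B3. SLCO1B7, a near copy of SLCO1B3 on the same strand of chromosome 12, was also at 0. In GENCODE release 44 a read-through gene of SLCO1B3 and SLCO1B7 covers 54.5% of the exonic bases of SLCO1B3. A counter that discards reads shared by 2 genes would lose reads there, but the read-through row itself held 1 count in all and the bases that SLCO1B3 does not share held none. The remaining genes of the SLCO1 cluster on chromosome 12 were SLCO1C1, a thyroid hormone carrier with 1 count in 1 RC4-2B library, and SLCO1A2, with 3 counts in RC4-2B replicate 2 and none elsewhere. SLCO2B1, SLCO4C1 and SLCO6A1 had no count in any library either.

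The sequences around the starts of SLCO1B1 and SLCO1B3 are shown because they belong to genes at 0 counts, and that of SLCO3A1 because it is the carrier with the smallest p-value here. They are RefSeq sequences of GRCh38.p14, 300 bases each, on the plus strand at chr12:21130944-21131243, chr12:20810455-20810754 and chr15:91853458-91853757. Capitals mark the GC box GGGCGG bound by Sp1 (or its reverse complement CCGCCC) and the CCAAT box bound by NF-Y (CCAAT or ATTGG), and no capital letter belongs to both motifs.
SLCO1B1: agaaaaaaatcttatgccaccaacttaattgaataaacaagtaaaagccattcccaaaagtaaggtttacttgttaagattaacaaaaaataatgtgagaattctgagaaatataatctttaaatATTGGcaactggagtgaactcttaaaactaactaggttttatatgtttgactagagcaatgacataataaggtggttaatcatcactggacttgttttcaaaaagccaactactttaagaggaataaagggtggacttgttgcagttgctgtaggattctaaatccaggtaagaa
SLCO1B3: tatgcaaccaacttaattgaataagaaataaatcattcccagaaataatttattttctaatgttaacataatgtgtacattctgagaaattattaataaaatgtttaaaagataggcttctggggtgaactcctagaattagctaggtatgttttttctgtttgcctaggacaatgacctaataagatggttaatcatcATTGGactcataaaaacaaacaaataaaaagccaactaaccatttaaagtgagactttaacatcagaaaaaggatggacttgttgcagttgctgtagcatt
SLCO3A1: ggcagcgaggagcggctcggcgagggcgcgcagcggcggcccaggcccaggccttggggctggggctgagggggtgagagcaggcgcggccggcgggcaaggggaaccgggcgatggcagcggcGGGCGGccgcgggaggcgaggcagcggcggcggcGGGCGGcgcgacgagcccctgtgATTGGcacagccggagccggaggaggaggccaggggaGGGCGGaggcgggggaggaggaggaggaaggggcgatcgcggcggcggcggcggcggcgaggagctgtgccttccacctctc
Both liver genes hold no CpG in these windows, with a GC content of 31.3% and 30.0%, whereas that of SLCO3A1 holds 41 CpG and is 80.0% GC. CCAAT or its reverse complement occurs at 1 place in each of the 3 windows, and 34.6% of all 35116 promoter windows hold it. GGGCGG occurs at 3 places in the SLCO3A1 window shown and in 45% of all windows. A second SLCO3A1 window, not shown, at chr15:91854054-91854353 holds 38 CpG, GGGCGG at 2 places and no CCAAT or ATTGG. Windows were found for 29 of the 48 carriers, some of which had more than 1. GGGCGG was in at least 1 window of 14 of these genes, and CCAAT or ATTGG in at least 1 window of 12. These count genes, so they do not compare directly with the shares of single windows. A match is a run of letters and not a measured site. HNF4A, a transcription factor of liver, had at most 1 count in a library, and NR1I2 (the xenobiotic receptor PXR) had none. They belong to a list of 25 regulators and scaffolds of transport, of which 15 had enough counts to be tested. A link between these regulators and the 0 counts of the liver genes was not tested.

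Of the SLCO genes that were tested, SLCO3A1 and SLCO5A1 had higher values in RC4-2B. SLCO3A1 encodes OATP3A1, a carrier of prostaglandins and thyroid hormone, and lies on the plus strand of chromosome 15 at 91853695 to 92172435. In GENCODE release 44 it shares 5.71% of its exonic bases with a long noncoding RNA gene on the opposite strand. Whether counting took account of strand is not given in the sources used here. SLCO3A1 measured 4.00, 3.79 and 3.81 CPM in C4-2B replicates 1 to 3 and 7.25, 8.38 and 5.99 CPM in RC4-2B replicates 1 to 3. The C4-2B libraries lay close together and all RC4-2B libraries were above them. The log2 fold change was 0.90 (95% interval 0.45 to 1.34, standard error 0.20), and in edgeR its adjusted p, after Benjamini-Hochberg, was 0.0611. Its adjusted p-value was 0.0165 by DESeq2, 0.0194 with a correction for GC content and 0.0185 without RC4-2B replicate 2, where the log2 fold changes were 0.89, 0.91 and 0.77. It did not pass without C4-2B replicate 1, 2 or 3 (edgeR adjusted p = 0.26, 0.256 and 0.216), without RC4-2B replicate 1 or 3 (0.0646 and 0.0995) or with a replicate block (0.099), at log2 fold changes of 0.88 to 1.01. SLCO5A1, which encodes an OATP without an established substrate, measured 5.91, 7.87 and 7.97 CPM in C4-2B and 12.0, 12.7 and 9.22 CPM in RC4-2B. The groups did not overlap, and the log2 fold change of 0.64 had a standard error of 0.20 and an adjusted p of 0.133 in edgeR's test. SLCO2A1, the prostaglandin transporter, was near the limit of counting, at 0.776, 0.453 and 0.797 CPM in C4-2B and 1.44, 0.798 and 1.17 CPM in RC4-2B, so that its highest C4-2B and lowest RC4-2B value were about equal (log2 fold change 0.74, standard error 0.38).

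SLCO4A1 had the opposite direction to these. It encodes OATP4A1, a widely expressed carrier of thyroid hormone and steroid conjugates, and is on chromosome 20 at 62642445 to 62685785. Its level was 46.6, 43.7 and 42.2 CPM in C4-2B and 34.4, 19.04 and 34.4 CPM in RC4-2B. All RC4-2B libraries were below all C4-2B libraries, and replicate 2 was by far the lowest. The log2 fold change was -0.59 (standard error 0.22, edgeR adjusted p = 0.18). Without RC4-2B replicate 2 it was -0.36 with an adjusted p of 0.0234 in the same test, and with the GC correction it was -0.29 with an adjusted p of 0.0897, so the size of this difference depended on replicate 2.

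**Figure D2:**
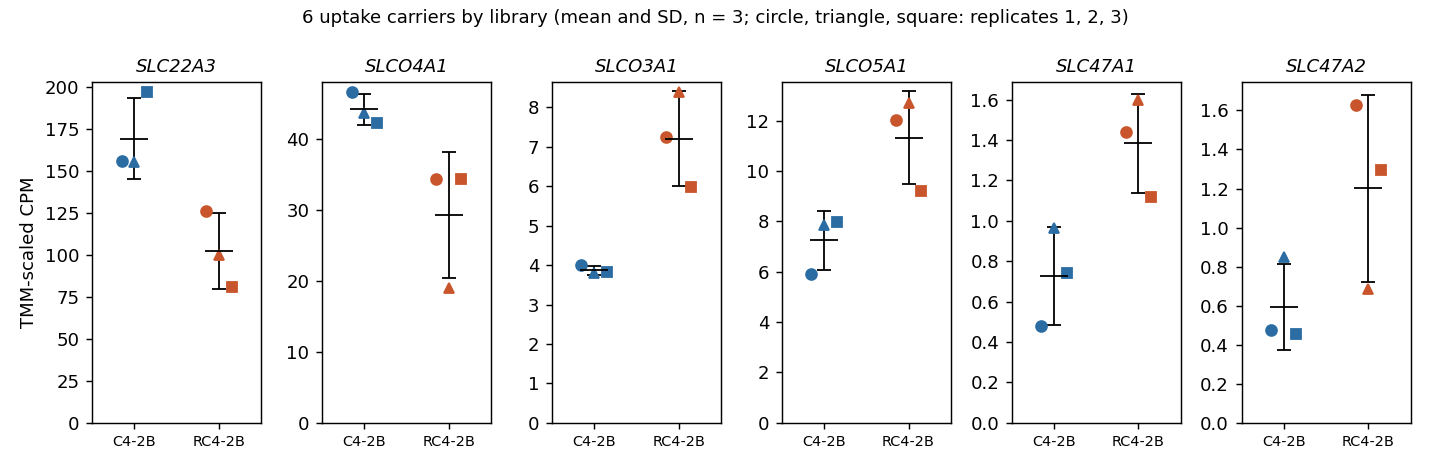
TMM-scaled CPM (vertical, from 0) of SLC22A3, SLCO4A1, SLCO3A1, SLCO5A1, SLC47A1 and SLC47A2 in each library of C4-2B (blue) and RC4-2B (orange), with the mean and SD (n = 3) as bars. SLC22A3 and SLCO4A1 lie lower in every RC4-2B library, SLCO3A1, SLCO5A1 and SLC47A1 lie higher in every RC4-2B library, and the groups of SLC47A2 overlap through RC4-2B replicate 2.

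The most abundant carrier, SLC22A3, had lower values in RC4-2B, and so did its neighbour SLC22A2 on average. SLC22A3 encodes OCT3, which carries monoamines, metformin and other organic cations, and lies on the plus strand of chromosome 6 at 160348268 to 160452581, beside SLC22A2 (160171061 to 160277638). SLC22A3 measured 156, 155 and 197 CPM in C4-2B and 126, 100.3 and 80.7 CPM in RC4-2B. Every RC4-2B library was below every C4-2B library. The log2 fold change was -0.73 (standard error 0.18, 95% interval -1.13 to -0.32, edgeR adjusted p = 0.0783), and the adjusted p-value was 0.00675 by DESeq2, 0.0148 with the GC correction, 0.0402 when RC4-2B replicate 1 was left out and 0.00625 when replicate 2 was. It did not pass without C4-2B replicate 1, 2 or 3 (edgeR adjusted p = 0.264, 0.223 and 0.269), without RC4-2B replicate 3 (0.187) or with a replicate block (0.108), at log2 fold changes of -0.79 to -0.58. SLC22A3 has a transcript GC content of 47.7%, and RC4-2B replicate 2 differed from the mean of replicates 1 and 3 by -0.0079 on the log2 scale for this gene.

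SLC22A2 (OCT2, the renal cation transporter) had 8, 16 and 16 counts in the C4-2B libraries against 4, 10 and 1 in RC4-2B and was not tested with all 6 libraries. It passed the count filter when RC4-2B replicate 2 was left out, but only through the C4-2B libraries, so a lower value in RC4-2B was favoured by the filter. The log2 fold change in that fit was -2.28, with 4 and 1 counts left in RC4-2B. The groups overlap through replicate 2.

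Both SLC47A genes had higher mean values in RC4-2B. SLC47A1 (MATE1) and SLC47A2 (MATE2) lie close to each other on chromosome 17, at 19495385 to 19579034 and 19678288 to 19718979. SLC47A1 had 8, 17 and 13 counts in the C4-2B libraries against 23, 28 and 19 in RC4-2B, with no overlap between the groups (log2 fold change 0.92, standard error 0.36, edgeR adjusted p = 0.198). SLC47A2 had 8, 15 and 8 counts in the C4-2B libraries against 26, 12 and 22 in RC4-2B, where replicate 2 lay within the C4-2B range. Its log2 fold change was 1.00 (standard error 0.44, edgeR adjusted p = 0.238), and 1.28 with an adjusted p of 0.0612 without RC4-2B replicate 2. The median log2 fold change of the 944 tested genes of chromosome 17 was 0.15, and its part in these values was not tested.

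The vitamin carriers SLC19A1 and SLC19A2 were among the most abundant members and did not pass the test. SLC19A1, the reduced folate carrier, measured 87.9, 87.0 and 78.3 CPM in C4-2B and 74.2, 34.9 and 81.0 CPM in RC4-2B. Replicate 2 alone was far below the rest, and the other RC4-2B libraries lay at the lower end of, or slightly under, the C4-2B values. The log2 fold change was -0.41 (standard error 0.27), -0.12 without RC4-2B replicate 2 and -0.086 with the GC correction. SLC19A1 shares 13.9% of its exonic bases with COL18A1 on the opposite strand, and whether counting took account of strand is not given in the sources used here. SLC19A2, the thiamine transporter THTR1, measured 42.0, 45.1 and 48.3 CPM in C4-2B and 36.7, 37.0 and 42.6 CPM in RC4-2B, with a log2 fold change of -0.22 and a 95% interval of -0.50 to 0.06. SLC19A3, the other thiamine transporter, had no count in any library.

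No concentrative nucleoside transporter was tested. SLC28A1 and SLC28A3 had no count in any library, and SLC28A2 had 6, 1 and 2 counts in the C4-2B libraries against 2, 5 and 7 for RC4-2B, values near the floor. Among the equilibrative nucleoside transporters, which belong to another family, SLC29A1 (ENT1) averaged 124 CPM (SD 7.43, n = 3) in C4-2B against 126 CPM (SD 6.68) in RC4-2B. SLC29A2 measured 73.4, 76.3 and 71.4 CPM in C4-2B and 58.2, 33.9 and 54.8 CPM in RC4-2B. All its RC4-2B libraries were lower, as in 17.1% of all tested genes. Its log2 fold change was -0.59 (standard error 0.19, edgeR adjusted p = 0.152). Without RC4-2B replicate 2 it was -0.38 (edgeR adjusted p = 0.0105, beside 12.5% of all genes called). With the GC correction it was -0.30 (edgeR adjusted p = 0.0622). SLC29A3 and SLC29A4 had log2 fold changes of 0.011 and -0.095.

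Of the peptide carriers, SLC15A4 and SLC15A2 were tested. SLC15A4, a lysosomal carrier of histidine and dipeptides, averaged 13.7 CPM (SD 0.997, n = 3) in C4-2B against 13.0 CPM (SD 0.711) in RC4-2B, which gave a log2 fold change of -0.079 with a 95% interval of -0.40 to 0.24. SLC15A2 (PEPT2) measured 3.04, 4.59 and 4.55 CPM in C4-2B and 2.38, 5.24 and 4.99 CPM in RC4-2B, where the lowest library of each line is its replicate 1. SLC15A1 (PEPT1, the intestinal form) and SLC15A5 had no count, and SLC15A3 had at most 2.

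The other tested SLC22A genes spread around 0. SLC22A5 (OCTN2, the carnitine transporter) averaged 17.9 CPM (SD 0.626, n = 3) in C4-2B against 18.9 CPM (SD 3.08) in RC4-2B, with a log2 fold change of 0.077 and a 95% interval of -0.28 to 0.44. SLC22A23, an orphan member, was at 25.2 ± 3.46 and 29.0 ± 3.52 CPM, and shares 15.6% of its exonic bases with PSMG4 on the opposite strand. SLC22A15 and SLC22A11 (OAT4) were below 2 CPM in each library. SLC22A17 (a receptor for lipocalin 2), SLC22A18 and SLC22A31 had one low library each. SLC22A31 measured 19.1, 16.8 and 20.7 CPM in C4-2B and 17.1, 2.17 and 16.1 CPM in RC4-2B. SLC22A18 measured 14.7, 14.9 and 15.7 CPM in C4-2B and 14.5, 5.99 and 17.2 CPM in RC4-2B. Without RC4-2B replicate 2 the log2 fold changes of SLC22A31, SLC22A18 and SLC22A17 were -0.18, 0.068 and 0.15, in place of -0.68, -0.27 and -0.15.

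**Figure D3:**
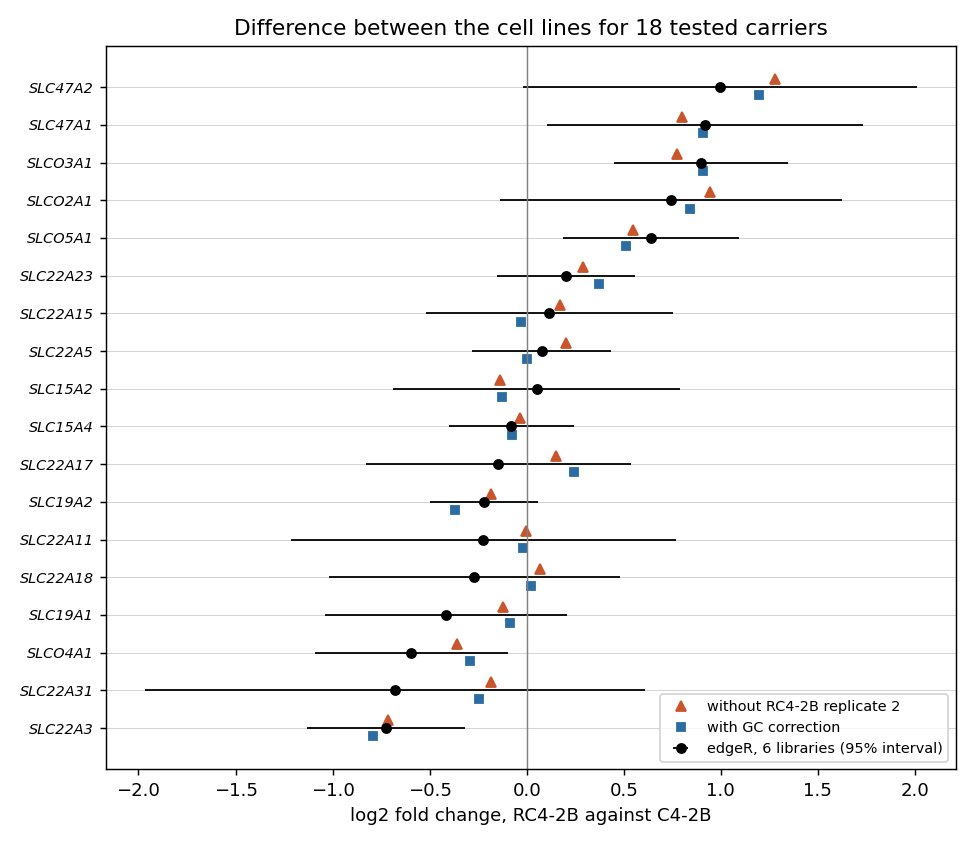
Log2 fold change of RC4-2B against C4-2B (horizontal) for 18 of the tested carriers from the edgeR fit of 6 libraries with its 95% interval (black), from the fit without RC4-2B replicate 2 (orange) and with the GC correction (blue). SLC22A3, at -0.73, and SLCO3A1, at 0.90, keep their place in all 3 fits, while SLC22A31, SLC19A1 and SLCO4A1 move toward 0 in both alternative fits.

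The low values of RC4-2B replicate 2 went with the GC content of the transcripts. For the 5 tested carriers over 60% GC (SLC22A31, SLC22A17, SLC19A1, SLC22A18 and SLCO4A1) the log2 of CPM + 0.1 in replicate 2 was below the mean of replicates 1 and 3 by a median of -1.15, and the values ranged from -2.88 to -0.85. For the other 14 the median was -0.15 and the highest value 0.59, and low values occurred there too, with SLC47A2 at -0.98. Over all 19 the Spearman correlation was -0.84, a description across genes that share the same libraries.

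**Figure D4:**
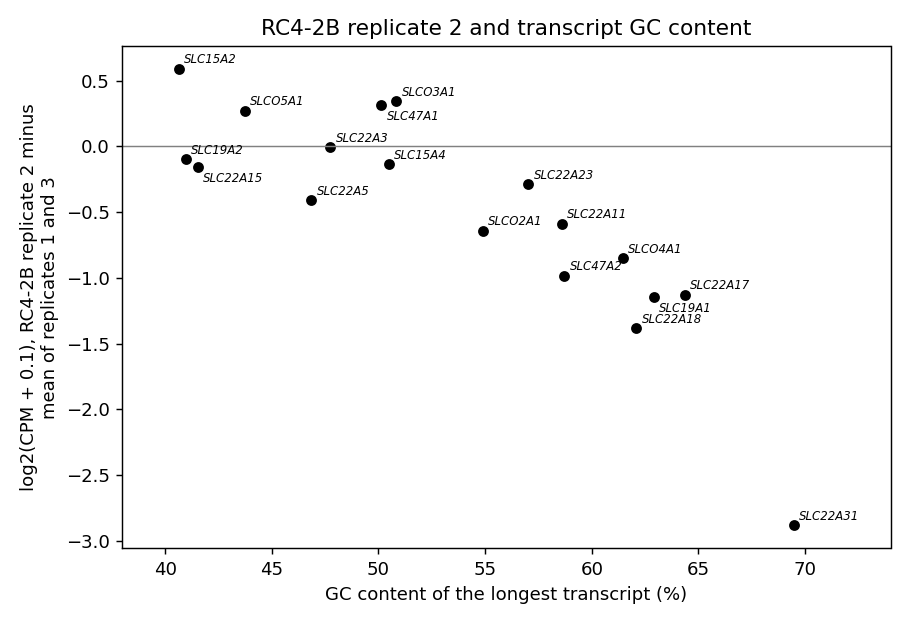
Difference of RC4-2B replicate 2 from the mean of RC4-2B replicates 1 and 3 in log2(CPM + 0.1) (vertical) against the GC content of the longest GENCODE transcript (horizontal, percent) for 18 of the tested carriers. The points fall from 0.59 for SLC15A2 at 40.6% GC to -2.88 for SLC22A31 at 69.5% GC.

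Most of the remaining carriers were not detected at this depth. In all, 17 of the 48 had no count in any library, 6 had at most 3 counts in every library, and 6 exceeded 3 counts in a library without passing the filter. The 17 were SLCO1B1, SLCO1B3, SLCO1B7, SLCO2B1, SLCO4C1, SLCO6A1, SLC28A1, SLC28A3, SLC15A1, SLC15A5, SLC19A3, SLC22A6 (OAT1), SLC22A7 (OAT2), SLC22A9, SLC22A14, SLC22A24 and SLC22A25, and the floor of 3 counts allows each up to between 0.0146 and 0.0753 FPKM depending on length and library. On chromosome 11, which holds 12 of the carriers, only SLC22A18 and SLC22A11 were tested, and the renal and hepatic genes SLC22A6, SLC22A8, SLC22A24, SLC22A25 and SLC22A9 had at most 1 count in any library. Their neighbour SLC22A10 had 5, 10 and 3 counts in the C4-2B libraries against 7, 6 and 0 in RC4-2B. SLC22A4 (OCTN1), beside SLC22A5 on chromosome 5, had at most 9 counts in a library, and SLC22A16, a carnitine carrier that also takes up doxorubicin, at most 4.

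Sets of genes with related roles were counted in the same fit. Of 35 other uptake routes (equilibrative nucleoside, bile acid, monocarboxylate, copper, choline and large amino acid carriers, folate receptors and endocytic receptors), 22 were tested and 1 passed, where 1.98% of all genes did. This was SLC7A5, the large neutral amino acid carrier LAT1, which measured 545, 546 and 493 CPM in C4-2B and 377, 293 and 330 CPM in RC4-2B. Its log2 fold change was -0.66 (standard error 0.12, edgeR adjusted p = 0.0299). The call was lost without C4-2B replicate 1, 2 or 3 (edgeR adjusted p = 0.186, 0.18 and 0.117) and without RC4-2B replicate 3 (0.111). It was also lost with a replicate block (0.0548), with the GC correction (0.146) and with both (0.0852). Neither limma fit on FPKM called SLC7A5 (limma adjusted p = 0.0583 and 0.0659). The log2 fold change stayed between -0.71 and -0.64 in these fits except with the GC correction. There it was -0.32, and -0.33 with the replicate block added. The transcript GC content is 61.2%. Without RC4-2B replicate 2 the log2 fold change was -0.58 with an edgeR adjusted p of 0.000472. SLC3A2, the heavy chain that pairs with LAT1, had a log2 fold change of -0.66 and did not pass (edgeR adjusted p = 0.0928), but it did without RC4-2B replicate 2 (0.00538, log2 fold change -0.50). SLC3A2 was singled out after its values were seen. The 22 tested genes had a median log2 fold change of 0.0074, with 12 above and 10 below 0. At an unadjusted edgeR p under 0.05, 4 were higher and 5 lower, beside 21.4% of all genes. SLC46A1, also singled out afterwards, had a log2 fold change of 0.32 (edgeR adjusted p = 0.237). Without RC4-2B replicate 2 it was 0.42 (0.0165), and with the GC correction 0.43 (0.0358, beside 7.62% of all genes called). Of 25 regulators and scaffolds of transport, 15 were tested and 0 passed, with a median log2 fold change of -0.12. At an unadjusted edgeR p under 0.05, 4 of the 15 were lower and 0 higher in RC4-2B. Of all 15054 genes tested, 1418 were lower and 1802 higher at that level, 21.4% in either direction. Of 34 enzymes of folate, thiamine and carnitine metabolism, 29 were tested and 0 passed, with 3 higher and 4 lower at an unadjusted p under 0.05 (again beside 21.4% of all genes) and a median log2 fold change of -0.067. DESeq2 called 3, 1 and 2 genes of these sets, with 5.93% of its tested genes called. Without RC4-2B replicate 2, 9, 5 and 4 were called, with 12.5% of all genes called.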

How the data were processed

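RNA of C4-2B and RC4-2B (3 libraries each) was sequenced by the authors, who mapped reads to GRCh38 with STAR. The counter, its use of strand, trimming and the annotation release are not given in the sources used here. The authors deposited raw counts per gene without normalization, and FPKM values, which are those counts divided by gene length and by 1 constant per library. Columns were matched to samples by the names in the labels.

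Counts were analysed with edgeR 4.0.16 in R 4.3.3 (TMM scaling, filterByExpr with a minimum count of 10, glmQLFit and glmQLFTest, Benjamini-Hochberg adjustment over the 15054 genes tested, threshold 0.05). Each standard error was derived from the fold change and its F statistic. CPM values are TMM-scaled. The code of the fit was run on simulated counts, with changes larger than those of the carriers and planted only in well-counted genes. No simulated library deviated with GC content. That run does not show how the fit does for changes as small as those of the carriers. The members and lists were chosen with earlier results of these data known. The named members are those past the threshold in this fit, without RC4-2B replicate 2 or with the GC correction, the most abundant, those with the largest differences, and a fixed list of drug and nutrient carriers. The alternatives were DESeq2 1.42.0, RLE and upper-quartile scaling, other count filters, a block on replicate number, leaving out each library, limma 3.58.1 on FPKM, and a GC correction (lowess, span 0.2, of each library's deviation on transcript GC from GENCODE release 44, known for 99.6% of tested genes). Since that correction includes both groups, it also removes a mean GC trend between them. All 48 members had the same chromosome and strand in GENCODE. Within a line, no pair of libraries agreed within sampling noise (chi-square per gene of at least 3.38). With 3 libraries against 3, p-values set the difference between the lines against the spread between these libraries. They do not cover the spread between separately selected subclones. Values of 1 tested member and of some regulators are not reported here.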

Additional observations from a re-analysis of the deposited data

How the results depend on the processing

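Of the 17 alternative fits, 1, without RC4-2B replicate 2 together with the GC correction, was chosen after seeing the data. SLC22A3 was lower and SLCO3A1 higher in RC4-2B in each fit that tested them. SLC22A3 passed the threshold in 7 of 17 and SLCO3A1 in 6 of 15, and their log2 fold changes ranged from -0.90 to -0.58 and from 0.76 to 1.01. Carriers called higher in RC4-2B numbered 1 without a low-count filter, with the GC correction and with DESeq2 (SLCO3A1 each time), 0 to 1 with a library left out and 2 without RC4-2B replicate 2 with the GC correction. Carriers called lower numbered 2 without a low-count filter, 1 with the GC correction and with DESeq2, 0 to 3 with a library left out (3 when it was RC4-2B replicate 2) and 2 when that library was left out with the GC correction. Both counts without RC4-2B replicate 2 include SLC22A2, which passed the count filter only through its C4-2B libraries and is not counted as support. Over the carriers tested in each fit the median log2 fold change was -0.28 with limma on log2(FPKM + 0.1), over fewer genes, and -0.14 to 0.032 with a library left out (0.032 when it was RC4-2B replicate 2). Of all genes, 4.29% were called without a low-count filter, 7.62% with the GC correction, 5.93% with DESeq2, 0.868% and 0.717% with limma, 0.284% to 12.5% with a library left out (12.5% when it was RC4-2B replicate 2) and 13.3% when that library was left out with the GC correction. The other uptake routes called numbered 4 without a low-count filter, 4 with the GC correction, 3 with DESeq2, 0 in both limma fits, 0 to 9 with a library left out (9 when it was RC4-2B replicate 2) and 8 with both changes. For regulators and scaffolds these numbers were 2, 2 and 1, 0 to 5 with a library left out (5 without the same one) and 5 with both changes. For the folate, thiamine and carnitine enzymes they were 1, 3 and 2, 0 to 4 (4 without the same one) and 5. The cause was not tested.

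Same-numbered libraries of C4-2B and RC4-2B deviated from their group means with correlations of 0.42, 0.24 and -0.096 across genes, and C4-2B replicate 3 correlated best with RC4-2B replicate 2, so the numbers were not taken as pairs. With the replicate block, 0 carriers were called in either direction and 0 of the other uptake routes, beside 0.857% of all genes. With the replicate block and the GC correction, 1 carrier was higher (SLCO3A1), 1 was lower (SLC22A3), and 5, 1 and 2 genes of the sets were called, beside 8.01% of all genes.

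Low counts limit SLC22A2, SLC47A1, SLC47A2 and SLCO2A1, which held at most 28 counts in a library.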

Other observations

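SLCO4A1-AS1, an antisense transcript that shares 8.67% of the exonic bases of SLCO4A1 in GENCODE release 44 and was singled out after its values were seen, had 5, 13 and 9 counts in C4-2B and 2, 0 and 1 counts in RC4-2B. It was too low for the filter on counts. Without that filter its log2 fold change was -2.97, with an adjusted p of 0.0443 from edgeR's quasi-likelihood test. In that fit 4.29% of all genes were called, 2.22% lower in RC4-2B. Whether counting took account of strand is not given in the sources used here, so reads of the shared bases cannot be told apart.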
